A study of Mus musculus with 2 samples.

Results

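The genes described here are the chemokines and their receptors in the stroma-enriched salivary gland of the mouse. They were all gene rows whose symbol starts with Ccl, Cxcl, Cx3cl, Xcl, Ccr, Cxcr, Cx3cr, Xcr or Ackr followed by a digit, which gave 52 of the 20140 genes in the table: 31 ligands, 17 signalling receptors and 4 atypical receptors of the Ackr group. Female C57BL6/J mice aged 14 weeks had their main submandibular and sublingual ducts closed with a metal clip for 14 days (ligated), or had the ducts exposed without clipping and healed for the same 14 days (mock). Glands of both groups, 2 per library, were dissociated, passed through beads that remove EpCAM-positive epithelium and Ter119-positive red cells, cleared of dead cells and run on a 10X droplet system. Each condition is 1 library, so no difference given here has a replicate check and none was tested. Because 2 glands were pooled, the spread between glands or mice is unknown too.

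Chemokines are small secreted proteins that bind to sugars of the vessel wall and matrix and guide leukocytes along a gradient. Their receptors couple to G proteins of the Gi class and steer the cytoskeleton of the cell that carries them. Atypical receptors bind the same ligands without that coupling and take them up or move them across a cell. Some ligands are made steadily by stroma and vessels (Cxcl12, Ccl21a, Cxcl14), some are induced by interferon or NF-kappaB (Cxcl9, Cxcl10, Ccl2), and some are stored or made by lymphocytes (Ccl5, Xcl1).

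The deposited values are cluster means, in unique molecular identifiers (UMIs) per 10000 UMIs of a cell. Splitting each mean by library gave 11406 ligated and 4199 mock cells in 12 clusters, and 5 further clusters were given for a subset of the cells that the authors labelled by pdgfr and gli1. The deposited tables used here do not give UMIs per cell, and a reconstruction from values that look like 1 UMI in 1 cell was too rough for counting intervals. By marker genes, cluster 0 was endothelial-like, cluster 1 natural killer-like, cluster 2 T cell-like, cluster 3 fibroblast-like, cluster 4 a further endothelial-like cluster, cluster 5 macrophage-like, cluster 6 mural-like (pericytes and smooth muscle), cluster 7 ductal-like and cluster 9 Schwann-like. Cluster 8 was led by acinar genes, cluster 10 by haemoglobin genes with endothelial and macrophage markers also detected, and cluster 11 by cell cycle genes. Libraries were compared only in the 9 clusters with at least 50 cells in each, which leaves out clusters 8, 9 and 11, and in 3 subset clusters: 0 (fibroblast-like), 2 (mural-like) and 3 (endothelial-like). Natural killer-like and T cell-like cells made up 29.4% and 12.2% of the ligated library against 16.2% and 3.69% of the mock library, and endothelial-like cluster 0 made up 25.8% against 56.3%.

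Each difference is the log2 of ligated over mock after adding 0.1 to both values, and a gene passed the size rule where its higher value reached 0.5 and its difference reached 1 in either direction. Droplets can also hold RNA released by other cells. A share for it was read from marker genes of other cell types, as the median of cluster value over library mean. Droplets with more than 1 cell, or mixed clusters, would raise the same markers and could not be told apart from it. That share was higher in the ligated library in each of the 12 compared clusters, from 3.59% in subset cluster 0 to 23.4% in cluster 7, whereas mock values ran from 0.875% in cluster 10 to 12% in cluster 6. Differences are therefore also given after this share of the library mean was subtracted from both libraries. Values that fell below 0 were set to 0. Single genes can lie far from the median: in mock mural-like cells, read at 12%, Ccl5 was 0.0573 where its library mean was 9.55.

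Of the 52 genes, 28 reached 0.5 in a compared cluster: 20 ligands and 8 receptors, of which Ackr3, Ackr1, Ccr2, Cxcr6, Cxcr3, Cx3cr1 and Ccr7 are described. In the compared clusters the other 24 stayed at or below 0.453, the level of Ccl27a in mock ductal-like cells, and were Cxcr2, Cxcr4, Ccl27a, Cxcl5, Cxcl1, Cxcl13, Ccl25, Ccl17, Cxcr5, Ackr4, Ccr4, Ccr8, Ackr2, Ccr9, Xcr1, Ccr1, Ccl7, Ccl1, Ccr10, Ccl28, Ccr6, Cxcl3, Ccl22 and Ccr3. Of these, 3 (Cxcl3, Ccl22 and Ccr3) were listed at 0 in every mock cluster. The neutrophil-attracting ligands Cxcl1, Cxcl3 and Cxcl5 and their receptor Cxcr2 were thus among the low genes, together with the eosinophil receptor Ccr3. Ccl21a and Ccl27a have near-identical gene copies in the mouse genome, so their values are uncertain.

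**Figure D1:**
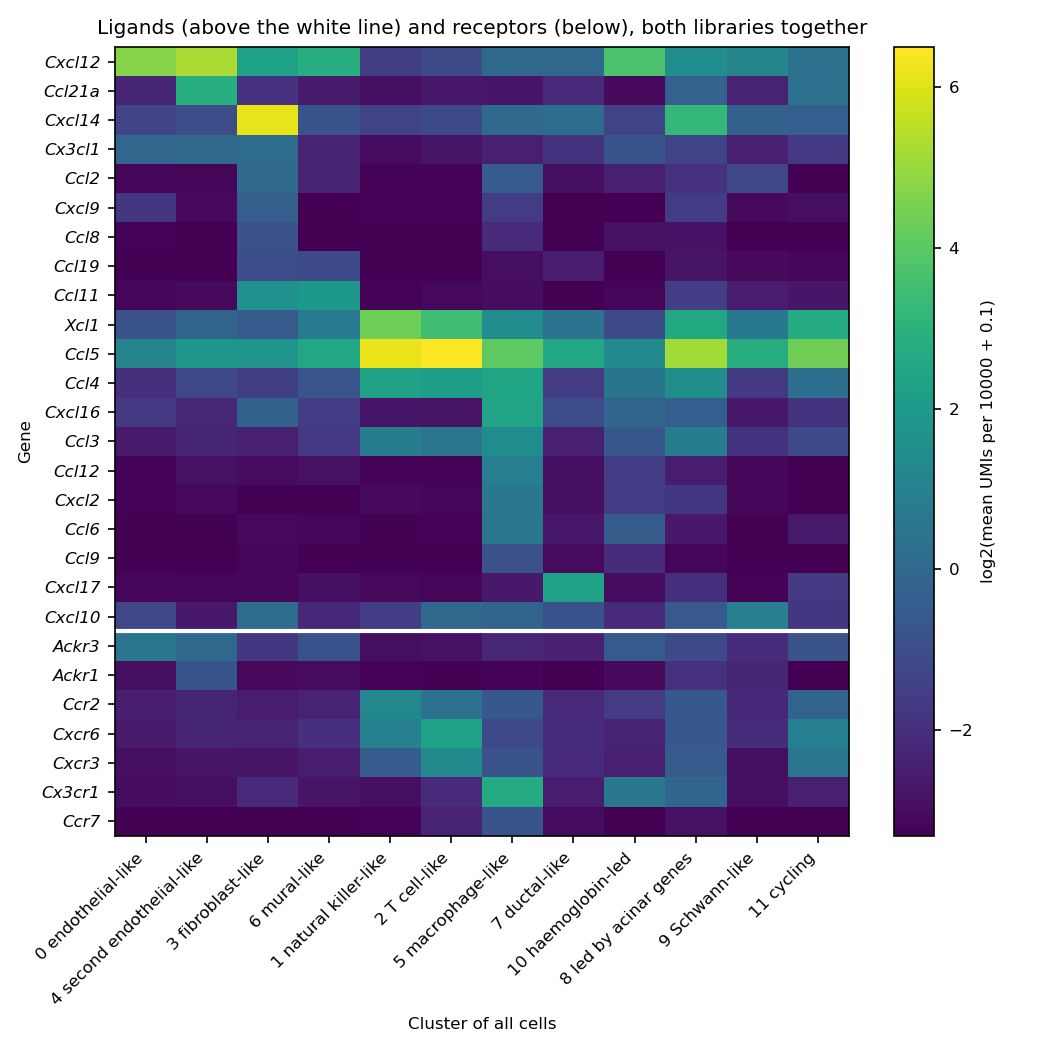
Heat map of 27 genes that reached 0.5 in a compared cluster, over the 12 clusters of all cells with both libraries together; colour is log2 of mean UMIs per 10000 plus 0.1. Many ligands are brightest in 1 or a few clusters, such as Cxcl12 in the endothelial-like clusters, Cxcl14 in cluster 3, Ccl5 in clusters 1 and 2 and Cxcl17 in cluster 7.

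Over the 9 clusters of all cells, 88 pairs of a gene and a cluster reached the minimum, and 28 passed the rule as higher and 10 as lower in the ligated library. Among stromal cells, endothelial-like cluster 0 had 4 of 7 genes higher (Ccl5, Cxcl10, Cxcl14 and Xcl1) against 3.92% of all genes there, and 1 lower (Cxcl12) against 2.68%. Fibroblast-like cluster 3 had 3 of 12 higher (Ccl5, Cxcl10 and Xcl1) against 4.47% and 2 lower (Ackr3 and Ccl11) against 5.32%. Endothelial-like cluster 4 had 3 of 8 higher (Ccl5, Cxcl14 and Xcl1) against 3.29% and 1 lower (Cxcl12) against 2.81%. Mural-like cluster 6 had 4 of 7 higher (Ccl4, Ccl5, Cxcl14 and Xcl1) against 4.92% and 1 lower (Ccl11) against 4.5%.

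In the lymphocyte clusters the counts past the rule were low. With so few genes reaching the minimum, they cannot be told apart from the shares of all genes. Natural killer-like cluster 1 had 0 of 8 genes higher, against 3% of all genes, and 0 lower, against 1.55%. T cell-like cluster 2 had 0 of 10 higher against 3.08%, and 1 lower (Cxcl12) against 2.27%. Macrophage-like cluster 5 had 4 of 18 higher (Ccl5, Cxcl14, Cxcr3 and Xcl1) against 4.15% and 3 lower (Ccl9, Ccr2 and Cxcl12) against 4.34%.

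In the remaining clusters more genes of all kinds differed. Ductal-like cluster 7 had 5 of 7 genes higher (Ccl5, Cxcl10, Cxcl14, Cxcl17 and Xcl1) where 14.8% of all genes were higher, and 0 lower where 11.6% were. Cluster 10 had 5 of 11 higher (Ccl3, Ccl4, Ccl5, Cxcl14 and Xcl1) where 23% of all genes were higher, and 1 lower (Cxcl12) where 2.14% were. The median difference over all genes was 0.56 in cluster 10. Centred on that median, Ccl3, Ccl4 and Cxcl14 fell short of the rule there, at 0.90, 0.58 and 0.88. Summed erythroid markers in cluster 10 were 1921 after ligation against 4415 after mock surgery. Every value is relative to all UMIs of a cell, so such a difference bears on the level of the other genes. Its part in the median difference and in the 5 higher genes of cluster 10 was not tested.

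Ccl5, Xcl1 and Cxcl14 supplied 20 of the 28 higher pairs, and 4 of those 20 still passed after the carried-over share was subtracted. Of the 8 higher pairs of other genes, 5 still passed. Among the 10 lower pairs, 8 still passed, with Cxcl12 in clusters 2 and 5 at a difference of 0.00 after subtraction.

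**Figure D2:**
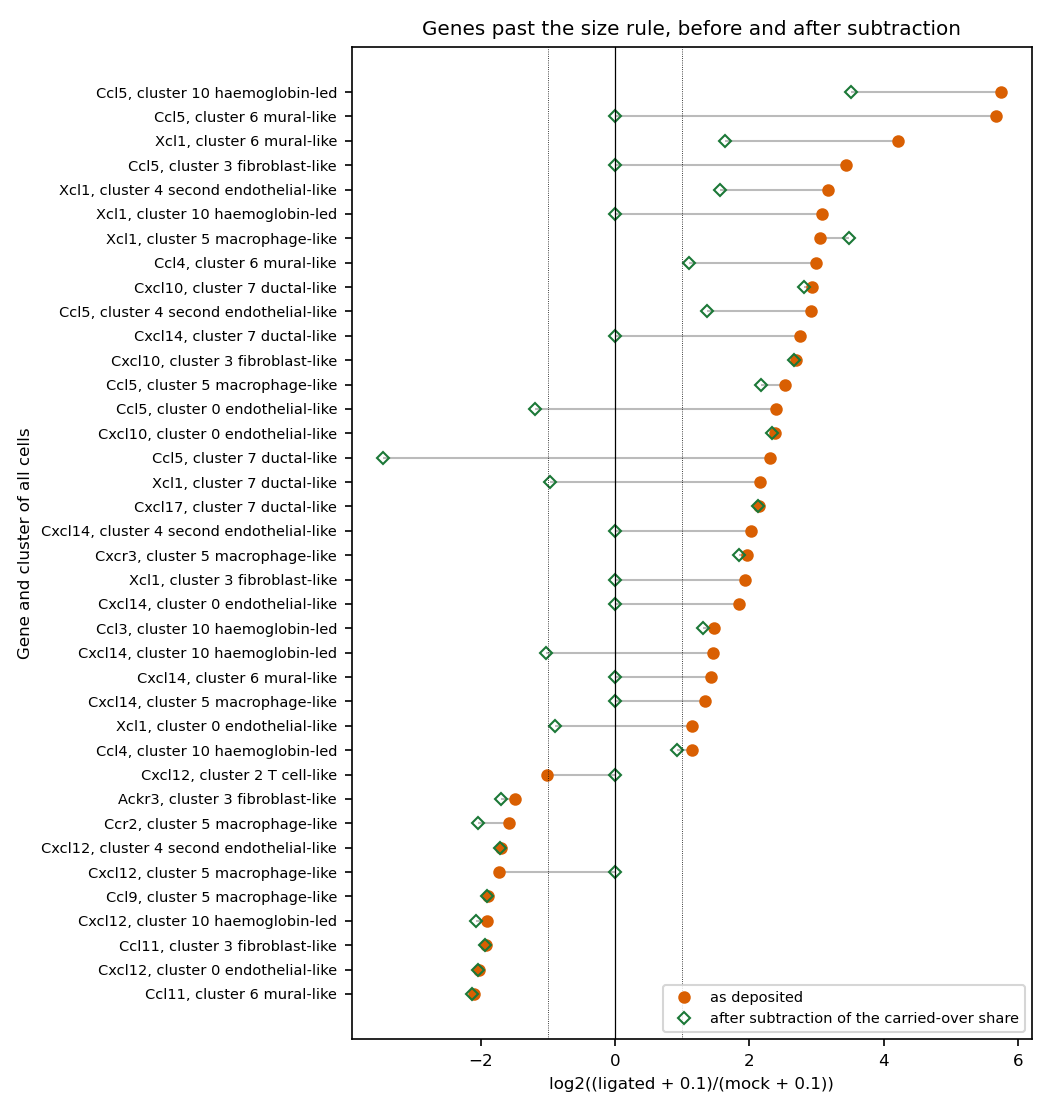
Differences between libraries, as log2((ligated + 0.1)/(mock + 0.1)), for the 38 pairs of a gene and a cluster past the size rule; filled circles are values as deposited, open diamonds the same after subtraction of the carried-over share, and dotted lines mark a difference of 1 in either direction. Cxcl10, Cxcl17, Ccl11 and endothelial Cxcl12 hardly moved, while most pairs of Ccl5, Xcl1 and Cxcl14 moved toward 0 or past it.

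Cxcl12, the ligand of Cxcr4 and of the scavenging receptor Ackr3, is made by vessels and stromal cells and holds leukocytes and progenitors in place. Its level in endothelial-like cluster 0 was 11.1 after ligation and 45.8 after mock surgery, a difference of -2.03, or 4.11-fold lower. In endothelial-like cluster 4 it was 22.9 against 74.8, which is 3.26-fold lower (-1.70). Subset endothelial-like cluster 3 gave 12.6 against 52.8 (-2.06), and cluster 10, which holds endothelial markers, gave 4.98 against 19.0 (-1.91). Clusters 0, 4 and 10 thus all had the lower level after ligation. So did subset cluster 3, whose cells are also among all cells and are no separate sample. Subtraction left cluster 0 at -2.04 and cluster 4 at -1.71.

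Outside endothelium Cxcl12 differed less. Fibroblast-like cells held 4.38 against 8.0 (-0.85). Mural-like cells held 6.65 against 9.14 (-0.45), and mural-like subset cluster 2 held 7.15 against 5.35 (0.41). As deposited, the mural direction thus depended on which clustering was read. After subtraction mural-like cluster 6 held 5.49 against 5.41 (0.02), so little difference was left there. Subset cluster 2 held 6.88 against 4.97 after subtraction (0.46). The lower Cxcl12 in T cell-like cells (0.343 against 0.797) and macrophage-like cells (0.747 against 2.72) was of the size of the carried-over share, and both values of each were 0 after subtraction.

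The mean of Cxcl12 over all cells was 4.96 after ligation and 31.1 after mock surgery, a difference of -2.63. With both libraries at the mock mix of clusters the difference was -1.91. Cluster 0 supplied 58.1% of all Cxcl12 in the ligated library against 82.9% in the mock library. Endothelial-like cluster 4 supplied 21.5% against 12.9%, and fibroblast-like cells 8.91% against 1.15%. Summed endothelial markers in cluster 0 were 171 after ligation against 210, although the median of the 11 markers was 16.8 against 14.5. Summed capillary markers were 36.5 against 60.8. Their part in the Cxcl12 difference was not tested.

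Ackr3 in endothelium differed little. It stood at 1.25 after ligation and 1.46 after mock surgery in cluster 0 (-0.20), and at 0.938 and 0.814 in cluster 4 (0.18). In fibroblast-like cluster 3 it was lower, at 0.143 against 0.585 (-1.50). Fibroblast-like subset cluster 0 held 0.0353 against 0.207, under the minimum. Subset cluster 4, with 17 ligated and 10 mock cells, was too small to compare and held 5.72 against 6.48. Whether its cells lie in cluster 3, and their part in the value there, was not tested. Mural-like cluster 6 held 0.346 against 0.760 (-0.95), just short of the rule, and mural-like subset cluster 2 held 0.246 against 0.787 (-1.36). A pseudocount of 1 left the fibroblast-like difference at -0.47 and that of subset cluster 2 at -0.52. The signalling receptor Cxcr4 did not reach 0.5 anywhere. Its highest mock level was 0.313, in T cell-like cells, where the ligated level was 0.0638. Natural killer-like cells held Cxcr4 at 0.0172 after ligation against 0.225, and macrophage-like cells at 0.0876 against 0.300. Endothelial-like cluster 0 went the other way, at 0.0619 against 0.0225. Its highest ligated level was 0.172, in endothelial-like cluster 4, where the mock level was 0.0277.

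Ackr1, which carries chemokines across venular endothelium, reached the minimum only in endothelial-like cluster 4, at 0.357 after ligation and 0.786 after mock surgery (-0.96). Summed markers of venous endothelium, with Ackr1 itself left out, were 1.63 against 4.22 in that cluster, and their part in the difference was not tested. Ackr1 shares exon sequence on the same strand with Cadm3, so reads of the 2 genes may not be separable. Ccl21a, which draws cells bearing Ccr7 into lymphatic vessels, was highest in the same cluster at 7.56 against 5.73 (0.39). Cx3cl1, a ligand tethered to the cell surface, was at 0.812 and 0.891 in cluster 0, whereas cluster 4 held 0.767 against 1.40 (-0.79).

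Ccl11, or eotaxin, attracts eosinophils through Ccr3 and came from fibroblast-like and mural-like cells. Fibroblast-like cells held 2.14 after ligation and 8.36 after mock surgery, 3.91-fold lower (-1.92). Mural-like cells held 1.87 against 8.36, 4.47-fold lower (-2.10). The subset table gave 2.26 against 8.78 (-1.91) in fibroblast-like and 2.15 against 9.89 (-2.15) in mural-like cells. Both cell types were thus lower after ligation by a similar amount in both clusterings, with subtraction leaving -1.93 and -2.14 in clusters 3 and 6.

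Fibroblast-like cells supplied 70.8% of all Ccl11 after ligation and 53.4% after mock surgery, and mural-like cells 22.7% and 45.7%. Fibroblast-like cells were a larger share of the ligated library, and the mean of Ccl11 over all cells was 0.305 against 0.702 (-0.99). At the mock mix of clusters it differed by -1.50. Cxcl14, a fibroblast gene, was at 0.162 in mock mural-like cells. Summed fibroblast markers in mural-like cells were 15.2 against 15.5. The part of fibroblast RNA in the Ccl11 of mural-like cells was not tested. Summed markers of the cells' own type were lower after ligation in both, at 355 against 540 in fibroblast-like cluster 3 and 137 against 220 in mural-like cluster 6. Their part in the Ccl11 difference was not tested.

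Other fibroblast ligands differed in either direction. Cxcl14, a ligand that many tissues make without inflammation, was at 72.0 after ligation and 77.7 after mock surgery in cluster 3 (-0.11). Ccl2, which attracts monocytes through Ccr2, was at 1.02 against 0.544 (0.80), and Ccl8 of the same gene cluster was at 0.428 against 0.553 (-0.31). Ccl19, the other ligand of Ccr7 and a product of lymphoid stroma, was at 0.519 against 0.0308 (2.24) in fibroblast-like subset cluster 0, or 0.56 with a pseudocount of 1. Mural-like cluster 6 held 0.339 against 0.402 and mural-like subset cluster 2 held 0.395 against 0.384, all under the minimum. Cluster 6 supplied 92.6% of all Ccl19 in the mock library, and fibroblast-like cluster 3 supplied 69.2% in the ligated library. Cxcl13, which attracts B cells through Cxcr5, was lower in cluster 3 as Ccl11 was, at 0.0144 against 0.390 (-2.10), but stayed under the minimum.

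The subset table read as a whole gave 23 pairs that reached the minimum, 8 higher and 4 lower. Fibroblast-like subset cluster 0 had 3 of 11 genes higher (Ccl19, Ccl5 and Cxcl10) against 4.75% of all genes and 1 lower (Ccl11) against 5.31%. Mural-like subset cluster 2 had 2 of 5 higher (Ccl5 and Cxcl14) against 4.26% and 2 lower (Ackr3 and Ccl11) against 4.26%. Endothelial-like subset cluster 3 had 3 of 7 higher (Ccl5, Cxcl10 and Cxcl14) against 6.29% and 1 lower (Cxcl12) against 4.23%. That last cluster also carried fibroblast markers, with a summed level of 86.6 after ligation and 33.0 after mock surgery, and its Cxcl14 was 13.8 against 4.74 (1.52). The part of fibroblast RNA in that value was not tested.

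**Figure D3:**
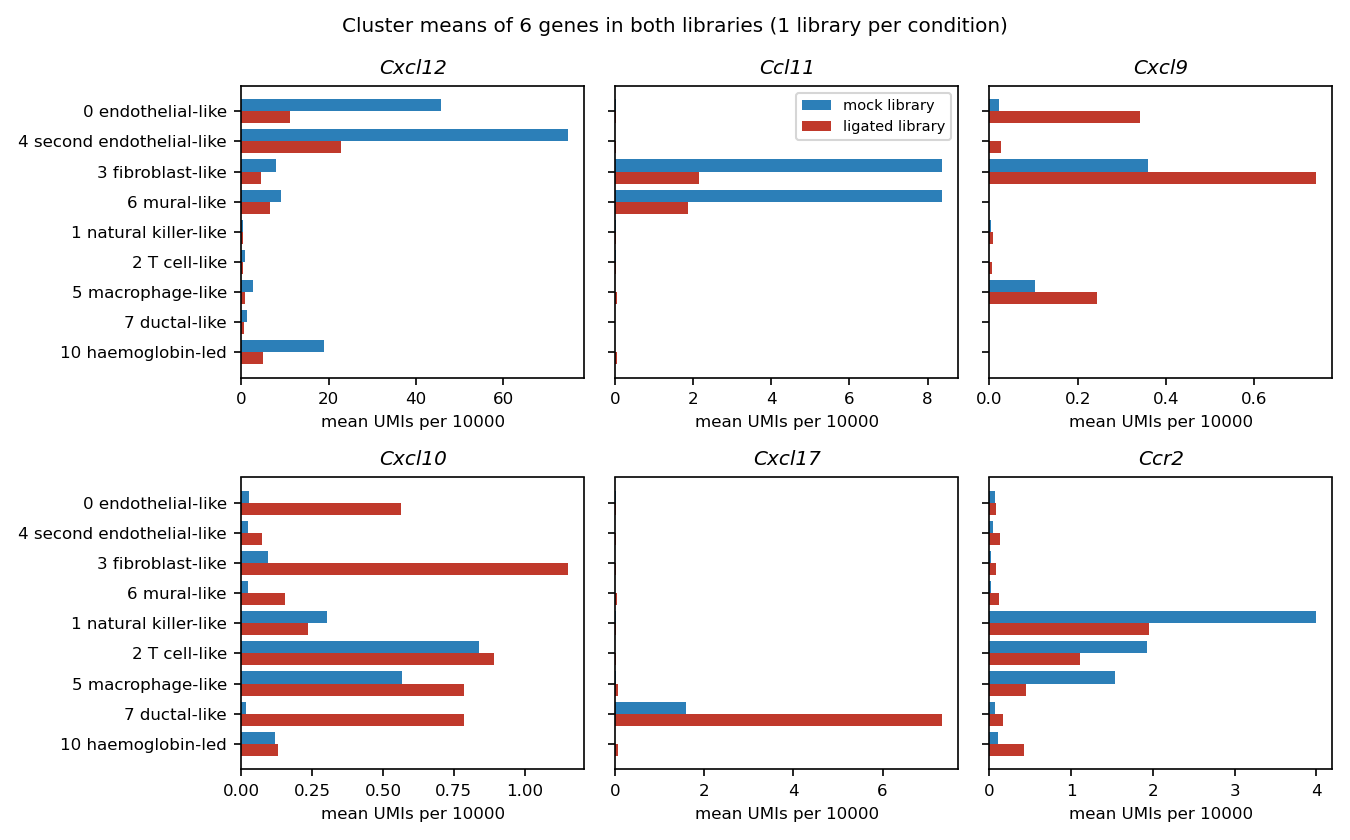
Cluster means of Cxcl12, Ccl11, Cxcl9, Cxcl10, Cxcl17 and Ccr2 in the 9 compared clusters, in mean UMIs per 10000, with blue bars for the mock and red bars for the ligated library; each panel has its own scale, every bar starts at 0, and 1 library per condition allows no error bar. Mock bars are longer for Cxcl12 in clusters 0 and 4 and for Ccl11 in clusters 3 and 6, and ligated bars are longer for Cxcl10 in clusters 0, 3 and 7 and for Cxcl17 in cluster 7.

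Cxcl9 and Cxcl10 are interferon-induced ligands of Cxcr3, the receptor of activated T and natural killer cells. Cxcl10 in fibroblast-like cells was at 1.15 after ligation and 0.0930 after mock surgery (2.70). In endothelial-like cluster 0 it was at 0.564 against 0.0269 (2.39), and in ductal-like cells at 0.785 against 0.0154 (2.94). Subset clusters 0 and 3 both gave a difference of 2.70, with 1.19 against 0.0992 in fibroblast-like and 0.623 against 0.0114 in endothelial-like cells. The latter also carried the fibroblast markers given above, whose part in this value was not tested. Endothelial-like cluster 4 stayed under the minimum, at 0.0730 against 0.0243 (0.48, and -0.14 after subtraction). Stroma and duct of the mock library thus held Cxcl10 near 0, and after subtraction the differences in clusters 3, 0 and 7 were 2.66, 2.33 and 2.81. The ductal-like value rests on few molecules, about 21 UMIs in the ligated library by a rough reconstruction. With a pseudocount of 1 these 3 were 0.98, 0.61 and 0.81, under the size of 1 that the rule asks for.

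Leukocytes had Cxcl10 in both libraries. T cell-like cells held 0.890 after ligation and 0.839 after mock surgery (0.08), and macrophage-like cells 0.786 and 0.568 (0.41). Natural killer-like cells held 0.235 and 0.301. The sources of Cxcl10 therefore differed in order: natural killer-like cells supplied 41.9% and T cell-like cells 26.6% of it in the mock library, and cluster 0 supplied 25.3% and fibroblast-like cells 20.1% in the ligated library. Exons of Art3 lie on the opposite strand over Cxcl10, and whether the counting used strand is not given in the sources used here.

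Cxcl9 stood at 0.739 after ligation and 0.360 after mock surgery in fibroblast-like cells (0.87), which is short of the rule. In cluster 0 it was at 0.340 against 0.0210 (1.86), under the minimum of 0.5. Macrophage-like cells, a known source of Cxcl9, held 0.243 against 0.103. Cluster 0 and fibroblast-like cells together were its main sources, with 46.9% and 39.7% in the ligated library. Over all cells Cxcl9 averaged 0.188 against 0.0307 and Cxcl10 0.577 against 0.116, and at the mock mix of clusters these differed by 1.35 and 1.51. Cxcl11, the other ligand of Cxcr3, has no row in the table and was not analysed here.

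Cxcl9 and Cxcl10 lie beside each other on chromosome 5 of GRCm38, within 27.5 kb (92321347 to 92348889, GENCODE M21), and are both read from the minus strand. Their promoters are shown because both genes stood higher in clusters 0 and 3 of the ligated library, Cxcl9 short of the rule, with that of Cxcl12 on chromosome 6 for comparison because it was lower in endothelium. Each window is the 250 bases before the start site, 5′ to 3′ along the gene, from the RefSeq promoter table on GRCm38.p6, which holds 40 of the 52 genes. They lie at chr5:92328080-92328329 on the minus strand for Cxcl9, chr5:92348890-92349139 on the minus strand for Cxcl10 and chr6:117168285-117168534 on the plus strand for Cxcl12. Capitals mark matches to the searched motifs.
Cxcl9: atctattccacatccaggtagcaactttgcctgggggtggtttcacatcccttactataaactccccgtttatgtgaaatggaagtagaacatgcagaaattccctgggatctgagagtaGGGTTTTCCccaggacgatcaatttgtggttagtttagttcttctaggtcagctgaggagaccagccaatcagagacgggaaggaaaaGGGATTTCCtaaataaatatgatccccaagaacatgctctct
Cxcl10: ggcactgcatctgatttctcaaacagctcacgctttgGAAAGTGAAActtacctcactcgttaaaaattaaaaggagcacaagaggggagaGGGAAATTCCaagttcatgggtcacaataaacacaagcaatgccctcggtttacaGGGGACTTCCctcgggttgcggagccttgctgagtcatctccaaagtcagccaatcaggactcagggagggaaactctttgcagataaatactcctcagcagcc
Cxcl12: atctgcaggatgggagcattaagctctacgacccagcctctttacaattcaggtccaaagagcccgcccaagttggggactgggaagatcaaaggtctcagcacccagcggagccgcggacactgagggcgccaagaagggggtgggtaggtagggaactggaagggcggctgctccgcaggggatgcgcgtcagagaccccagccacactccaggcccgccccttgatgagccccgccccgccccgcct

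The motifs searched on both strands were the core of the interferon-stimulated response element (GAAA, 2 bases of any kind, GAAA), the interferon-gamma-activated site (TTC, 3 bases, GAA), and the NF-kappaB site as GGG, 2 bases, TTCC or as GGG, 3 bases, TTCC, which can overlap. The Cxcl10 window held GAAAGTGAAA at position -213, GGGAAATTCC at -159 and GGGGACTTCC at -104 from the start site, the last of which contains GGGACTTCC at -103. The Cxcl9 window held GGGTTTTCC at -130 and GGGATTTCC at -42. Of the 40 genes with a window, 26 held none of the 4 motifs. Among the other 14, Cxcl14 held the response element core and the activated site, and Cxcl1, Cxcl2 and Cxcl3 held 3 NF-kappaB matches each. None of the 4 motifs occurred in the Cxcl12 window, whose bases were 64.4% G or C with 14 CG dinucleotides, against 44.4% with 3 for Cxcl9 and 48% with 5 for Cxcl10. Of 32536 windows of this length in the RefSeq table, 2.98% held the response element core, 7.04% the activated site, 5% the NF-kappaB site with 2 bases between and 4.65% that with 3. The share of windows holding any of the 4 was not computed. The count of 14 genes therefore has no background to be read against. A match describes letters only and was not tied to binding in these cells. Only these exact spellings were searched, so other forms of such sites would be missed.

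Cxcl17, a mucosal ligand of epithelium, was in effect a ductal gene. Ductal-like cells held 7.33 after ligation and 1.59 after mock surgery, 4.61-fold higher (2.14, and 2.13 after subtraction). They supplied 87.7% of all Cxcl17 after ligation and 97.3% after mock surgery. These were epithelial cells that passed the EpCAM depletion, and their summed ductal markers were 956 against 372. The part of the higher markers in the Cxcl17 difference was not tested.

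Ccl5, a ligand that cytotoxic lymphocytes store and release, was highest in lymphocytes. T cell-like cells held 95 after ligation and 52.1 after mock surgery (0.87), and natural killer-like cells 79.6 and 43.8 (0.86). These were 1.82-fold in both, short of the rule, and remained at 0.82 and 0.81 after subtraction. Natural killer-like and T cell-like cells supplied 59.5% and 29.5% of all Ccl5 in the ligated library and 74.1% and 20.1% in the mock library. With more lymphocytes in the ligated library as well, its mean over all cells was 39.3 against 9.55 (2.03), and 20.3 against 9.55 (1.08) at the mock mix.

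Ccl5 also passed the rule as higher in each of the 7 other compared clusters of all cells. Fibroblast-like cells held 3.85 against 0.266 (3.43) and mural-like cells 7.90 against 0.0573 (5.67). As a share of the library mean the ligated values were 9.80% in fibroblast-like cells and 8.62% in cluster 0, where the median markers of other cell types stood at 9.97% and 8.8%. After subtraction Ccl5 was 0 in both libraries in clusters 3 and 6, a difference of 0.00. In cluster 0 the ligated value was set to 0 against 0.129 in the mock library, which gives -1.20. Cluster 7 gave -3.47, again with the ligated value set to 0. Neither of these 2 differences measures a reversal. Endothelial-like cluster 4 still passed the rule, at 0.535 against 0.145 after subtraction (1.37). Cluster 10, at 5.86 against 0.0109 as deposited, still passed too. Summed natural killer markers were 1.89 against 0.488 in fibroblast-like and 4.16 against 0.0800 in mural-like cells. Their part in the Ccl5 values there was not tested.

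Macrophage-like cells had the highest Ccl5 of the compared clusters outside lymphocytes. They held Ccl5 at 18.1 after ligation and 3.06 after mock surgery (2.53), which was 46.1% and 32.0% of the library means against medians of 21.6% and 10.5% for other markers. After subtraction 9.62 and 2.05 remained (2.17). Xcl1 in these cells was at 2.81 against 0.251 (3.05), and 1.02 against 0 remained. Summed T cell markers in the cluster were 3.31 against 0.751 and summed natural killer markers 6.42 against 4.15. Their part in the macrophage-like values was not tested.

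**Figure D4:**
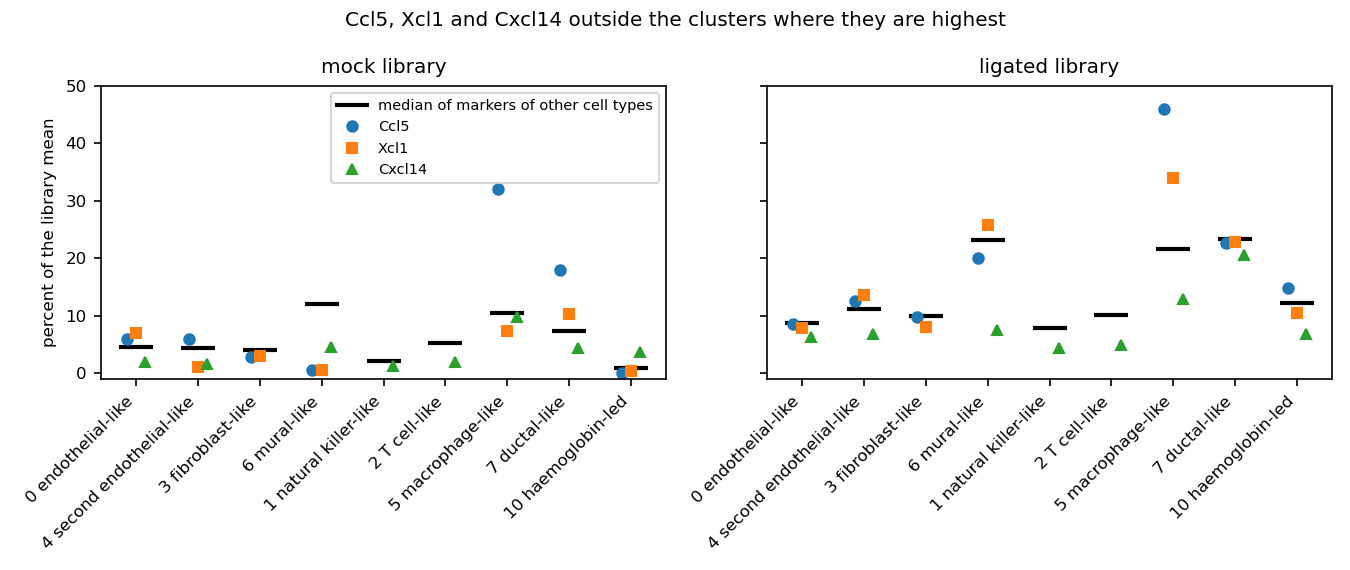
Levels of Ccl5, Xcl1 and Cxcl14 in the clusters that are not their main sources, as a percent of the library mean, with the mock library left and the ligated library right; black bars are the median of markers of other cell types in the same cluster. Cxcl14 lies under the bar in all ligated clusters shown, and Ccl5 in cluster 5 lies above it in both libraries, at 32.0% on the left and 46.1% on the right.

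Xcl1, made by natural killer and CD8 T cells and read by cross-presenting dendritic cells through Xcr1, differed little in its sources. Natural killer-like cells held 20.7 after ligation and 17.5 after mock surgery (0.24), and T cell-like cells 11.2 and 9.83 (0.19). Its receptor Xcr1 was at most 0.111, in mock macrophage-like cells, and summed dendritic markers there were 1.42 and 1.72. Elsewhere Xcl1 was higher in the ligated library in all 7 other clusters as deposited, and the sign of its difference turned on subtraction in clusters 0 (-0.89) and 7 (-0.96). In both of these the ligated value was set to 0, so no reversal was measured. Exons of Gm20743 lie on the opposite strand over Xcl1.

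Ccl3 and Ccl4, inflammatory ligands made by activated macrophages and lymphocytes, were near the same level in lymphocytes of both libraries. Ccl4 was at 4.73 and 6.12 in natural killer-like cells (-0.36), 4.50 and 3.77 in T cell-like cells (0.25) and 5.59 and 5.36 in macrophage-like cells (0.06). Ccl3 was at 1.60 and 2.11 in natural killer-like cells and 1.36 and 1.25 in T cell-like cells. Macrophage-like cells had the largest Ccl3 difference of these 3 cell types, at 2.78 against 1.38 (0.96), just short of the rule. In mural-like cells Ccl4 was at 0.699 and listed at 0 in the mock library, and 0.114 remained after subtraction, under the minimum. Summed natural killer markers in these cells were 4.16 against 0.0800, and their part in the Ccl4 value was not tested.

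Cxcr6 and Cxcr3 differed little between libraries in lymphocytes. Cxcr6, the receptor of Cxcl16 and a mark of tissue-resident lymphocytes, was at 4.91 and 4.19 in T cell-like cells (0.23) and 1.92 and 1.34 in natural killer-like cells (0.49). Cxcr3 was at 2.41 and 1.84 in T cell-like cells (0.37) and 0.618 and 0.622 in natural killer-like cells. For both receptors every lymphocyte difference was under 0.5 in size.

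Ccr2, the monocyte receptor of Ccl2 and Ccl12 that also occurs on natural killer cells, was lower in all 3 leukocyte clusters after ligation. Natural killer-like cells held 1.95 after ligation and 3.99 after mock surgery, 2.04-fold lower (-0.99, and -1.03 after subtraction). T cell-like cells held 1.11 against 1.93 (-0.75). Macrophage-like cells held 0.449 against 1.54, 3.43-fold lower (-1.58, and -2.05 after subtraction). With more natural killer-like cells in the ligated library, the means over all cells were 0.802 and 0.801, and at the mock mix of clusters the difference was -0.71. A pseudocount of 1 in place of 0.1 left the macrophage-like Ccr2 difference at -0.81, and that of Ccl9 described next at -0.91.

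Other genes of macrophage-like cells differed in either direction. Ccl2 was at 0.637 against 0.330 (0.78), short of the rule. Ccl9 was at 0.329 after ligation and 1.49 after mock surgery (-1.89), and Ccl6, another ligand of Ccr1, at 1.26 against 2.32 (-0.83). Ccl12 was at 1.68 against 2.34 (-0.46) and Cxcl2, which attracts neutrophils, at 1.41 against 1.78 (-0.32). Cx3cr1, a mark of resident macrophages, stood at 6.41 and 6.60 (-0.04) and Cxcl16 at 5.06 and 6.25 (-0.30). Summed macrophage markers were 391 against 329, while those of B cells were 1.54 against 3.06, of neutrophils 0.412 against 0.861 and of plasma cells 0.166 against 0.746. The part of these cell types in the differences was not tested. The mock macrophage-like cluster held only 77 cells.

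Cxcr3 in macrophage-like cells was at 0.511 against 0.0562 (1.97). After subtraction it was at 0.390 against 0.0370, under the minimum. The part of the higher T cell markers given above in this value was not tested. Ccr7, which guides mature dendritic and naive T cells, was at 0.478 and 0.561 in macrophage-like cells and at 0.0725 and 0.304 in T cell-like cells. Ccr6 was at 0.0521 and 0.191 in T cell-like cells, and both genes stayed under the minimum there.

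Reading ligands against receptors, 33 known pairs were fixed, and 3 of them lack a ligand row (Cxcl11, Ccl24 and Ccl20). Both genes reached 0.5 in a cluster of all cells for 11, among them Cxcl12 with Ackr3, Cxcl9 and Cxcl10 with Cxcr3, Ccl2 and Ccl12 with Ccr2, Ccl21a with Ccr7, Cx3cl1 with Cx3cr1 and Cxcl16 with Cxcr6. These describe where transcripts were, not binding or signalling.

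The cluster with the highest level of a Cxcr3 ligand differed between libraries. Among compared clusters Cxcl10 was highest in fibroblast-like cells of the ligated and in T cell-like cells of the mock library, while Cxcr3 was highest in T cell-like cells in both. Cxcl16 was highest in macrophage-like cells and Cxcr6 in T cell-like cells in both libraries. Cx3cl1 was highest in fibroblast-like cells (1.03) in the ligated and in endothelial-like cluster 4 (1.40) in the mock library, with Cx3cr1 in macrophage-like cells in both.

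For several ligands the known receptor was low. Ccr3, the receptor of Ccl11, was at no more than 0.00913 in the 12 clusters of all cells. Xcl1 faced Xcr1 at 0.111 or less, Ccl6 and Ccl9 faced Ccr1 at 0.233 or less, and Cxcl2 faced Cxcr2 at 0.0264 or less in compared clusters. Cxcl12 faced Cxcr4 at 0.313 or less. Receptor transcripts are often sparse in droplet data, so a low level does not show that the receptor is absent.

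Genes of the chemokine system with other names were listed as well: 61 genes, of which 59 had values in both libraries and 52 reached the minimum in a compared cluster. They gave 238 pairs of a gene and a cluster, 25 higher and 5 lower in the ligated library. Of the 25, 9 were in cluster 10 and 6 in cluster 7, where 23% and 14.8% of all genes were higher, and the other 7 clusters had 3% to 4.92% of all genes higher. By group, migration genes had 9 of 57 pairs higher, receptor desensitisation 7 of 35, induction 5 of 56, presentation on sugars 3 of 19 and G proteins and kinases 1 of 41. The chemokines and receptor-like proteins with other names had 0 of 18 higher and 2 lower, presentation 2 lower and proteases 1 of 12 lower.

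Of these, 4 genes were higher in at least 3 clusters, and none was lower in as many. Rac2, the leukocyte GTPase of cell movement, passed in 5 clusters, such as mural-like cells at 1.06 against 0.0631 (2.83). Coro1a, an actin regulator of leukocytes, and Rgs1, which dampens chemokine receptor signals, each passed in 3. In lymphocytes none of the 3 passed. In T cell-like cells Rac2 was at 11.7 against 8.20 (0.51), Rgs1 at 7.66 against 9.75 (-0.35) and Coro1a at 10.5 against 10.9 (-0.06). In natural killer-like cells the differences were 0.29, 0.00 and -0.01 for Rac2, Rgs1 and Coro1a. All 3 are leukocyte genes read in other cell types, beside the higher lymphocyte markers there, whose part was not tested.

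Irf7, an interferon-induced transcription factor, passed in fibroblast-like cells at 1.21 against 0.457 (1.24), in mural-like cells at 0.949 against 0.25 (1.58) and in ductal-like cells at 1.02 against 0.409 (1.13). In cluster 0 it was at 2.07 against 1.04 (0.93). The 4 genes that follow were chosen after their values were seen. Nfkbia, the NF-kappaB inhibitor and target, ran the other way in cluster 0 at 3.37 against 5.48 (-0.69). Ifng itself reached the minimum only in T cell-like cells, at 1.02 against 1.41 (-0.43). The platelet chemokines Pf4 and Ppbp were high in mock mural-like cells, at 1.71 and 0.882, and at 0.0124 and 0.00166 in ligated ones.

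Many of the 52 genes are neighbours in the genome (GRCm38, GENCODE M21), 14 on chromosome 11 and 13 on chromosome 9. On chromosome 11, Ccl2, Ccl7, Ccl11, Ccl12, Ccl8 and Ccl1 lie within 270 kb (82035571 to 82305690). Within that stretch Ccl11 was lower in ligated fibroblast-like cells by -1.92 while Ccl2 differed by 0.80 and Ccl8 by -0.31. A further 5 genes, Ccl5, Ccl9, Ccl6, Ccl3 and Ccl4, lie within 139 kb (83525778 to 83664683). In macrophage-like cells Ccl9 differed by -1.89, Ccl6 by -0.83, Ccl4 by 0.06, Ccl3 by 0.96 and Ccl5 by 2.53. Neighbouring genes thus differed in opposite directions in 1 cluster, with the lymphocyte markers given above beside the value of Ccl5. On chromosome 9, Ccr9, Cxcr6, Xcr1, Ccr1, Ccr3 and Ccr2 lie within 435 kb (123678439 to 124113557), and in natural killer-like cells Ccr2 differed by -0.99 beside Cxcr6 at 0.49.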

How the data were processed

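Per the submitters' processing notes, reads were processed with Cell Ranger 6.0.1 on mm10 and analysed in Seurat; further steps, doublet treatment and strand use are not given in the sources used here. The authors deposited 4 tables of mean expression per cluster, for all cells and for a subset, joint and split by surgery; the unit, UMIs per 10000 per cell on a linear scale, was inferred from the values. Cell numbers were recovered from how the deposited joint means weight the split means (largest residual 9.2e-08). Dates stood in place of 21 gene names in the tables split by surgery, and these names were restored from row order. Python 3.11.15, numpy 2.4.6 and pandas 2.3.3 were used, and the calculation was tested on simulated data. A gene was named where its higher value reached 0.5 in a compared cluster, and a gene of the wider list where it passed the size rule in at least 3 clusters in 1 direction. The 52 genes and the lists were chosen with earlier results of these data known; the motif spellings and the 3 promoters were chosen after the values were seen. Results for 1 receptor and 1 gene of the wider list are not reported here.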

Additional observations from a re-analysis of the deposited data

Results flagged for a closer look

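Clusters 8, 9 and 11 had too few mock cells (25, 17 and 22) for a comparison. A search made after the data were seen took genes at 0.5 or more in the ligated library, above its mean over all cells, and listed at 0 in the mock library. Schwann-like cluster 9 held Cxcl10 at 1.93 over 271 ligated cells, 335% of the library mean. The cluster led by acinar genes, with 264 ligated cells, held Cxcl14 at 10.2, Cx3cr1 at 0.905, Ccl21a at 0.823 and Cxcl16 at 0.732. These were 128%, 194%, 173% and 141% of the library mean. The same ligated cells held lymphocyte ligands near the library mean, with Ccl5 at 38.0 against 39.3 and Xcl1 at 6.55 against 8.26. The part of RNA from other cell types in these values was not tested. Cycling cluster 11, with 59 ligated cells, held Ccl21a at 1.67, or 351% of the library mean. With so few mock cells, a value listed at 0 does not show absence.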

How the results depend on the processing

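No paired analysis was possible because each condition is 1 library and no test was made; leaving out a replicate was not possible for the same reason. The 28 higher pairs of all cells became 13 with a pseudocount of 1, 56 with no minimum, 10 with a minimum of 2 and 9 with the carried-over share subtracted. The 10 lower pairs became 6 with a pseudocount of 1, 18 with no minimum, 6 with a minimum of 2 and 2 with a difference of at least 2. In the subset, the 8 higher pairs became 4, 18, 3 and 4 under the first 4 of these settings, and the 4 lower pairs became 7 with no minimum and 2 with a difference of at least 2. Subtraction turned the sign of the difference for Ccl5 in clusters 0 (-1.20) and 7 (-3.47), Xcl1 in clusters 0 (-0.89) and 7 (-0.96) and Cxcl14 in cluster 10 (-1.03). In each of these the ligated value was set to 0, so none of them measures a reversal. Of 111 differences of a gene in a cluster, 84 kept direction and side of the rule after subtraction, 106 after centring, 106 with a pseudocount of 0.01 and 87 with a pseudocount of 1; for other changes the cause was not tested.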
